A study of Mus musculus with 6 samples.

Results

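Zic1, Zic2, Zic4 and Zic5 are 4 members of the Zic family of zinc finger transcription factors. They were taken from the RNA-seq tables of mouse medulloblastoma by gene symbol, which gave 4 of 52550 genes and 19 of 131100 transcripts. All 4 genes and 18 of the 19 transcripts passed the expression filter and were tested. The study measured 3 Eed mutant and 3 Eed wild-type medulloblastoma samples, labelled as tumour tissue of a given Eed genotype. Eed belongs to the Polycomb group: as part of PRC2 it helps to methylate histone H3 and so to keep many developmental genes silent. The mutant Eed allele, the cells that carry it, the genetic driver of the tumours and the age of the mice are not given in the sources used here. Nothing in the labels says that the samples of a group came from separate animals, so the p-values below measure only the spread between these samples, which may be technical.

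Zic proteins share a zinc finger domain with the Gli factors of the Hedgehog pathway, and in cell assays they bind Gli-type DNA sites and Gli proteins. In the mouse, Zic1 is needed for normal growth and folding of the cerebellum, and Zic2 for closure of the neural tube and patterning of the forebrain. In humans, deletions that take both ZIC1 and ZIC4 occur with Dandy-Walker malformation of the cerebellum, and mutations of ZIC2 cause holoprosencephaly. Granule cell progenitors, the cells from which Hedgehog-driven medulloblastomas arise, and the granule neurons they form both express Zic genes.

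The 4 genes lie as 2 divergent pairs. In GENCODE M21 on GRCm38, Zic1 (ENSMUSG00000032368.14) is on the minus strand of chromosome 9 at 91358058 to 91365810, and Zic4 (ENSMUSG00000036972.14) is on the plus strand at 91362413 to 91389348. Zic5 (ENSMUSG00000041703.7) is on the minus strand of chromosome 14 at 122456795 to 122465677, and Zic2 (ENSMUSG00000061524.8) is on the plus strand at 122475435 to 122479852. The start of Zic1-201 lies 3202 bases from that of Zic4-204, and the start of Zic5-201 lies 9758 bases from that of Zic2-201. Zic4-204 was near 0 in all libraries, and Zic4-201, the form with the most Zic4 reads, starts further away, at 91378642. Between Zic5 and Zic2 lies 2610035F20Rik (ENSMUSG00000085555.9), a non-coding gene on the minus strand at 122470284 to 122475199, and the start of its transcript 2610035F20Rik-202 is 236 bases from that of Zic2-201. Inside Zic4, on the opposite strand, lies Gm37477 (ENSMUSG00000102803.1) at 91380519 to 91381402, a gene model of unproven status.

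**Figure D1:**
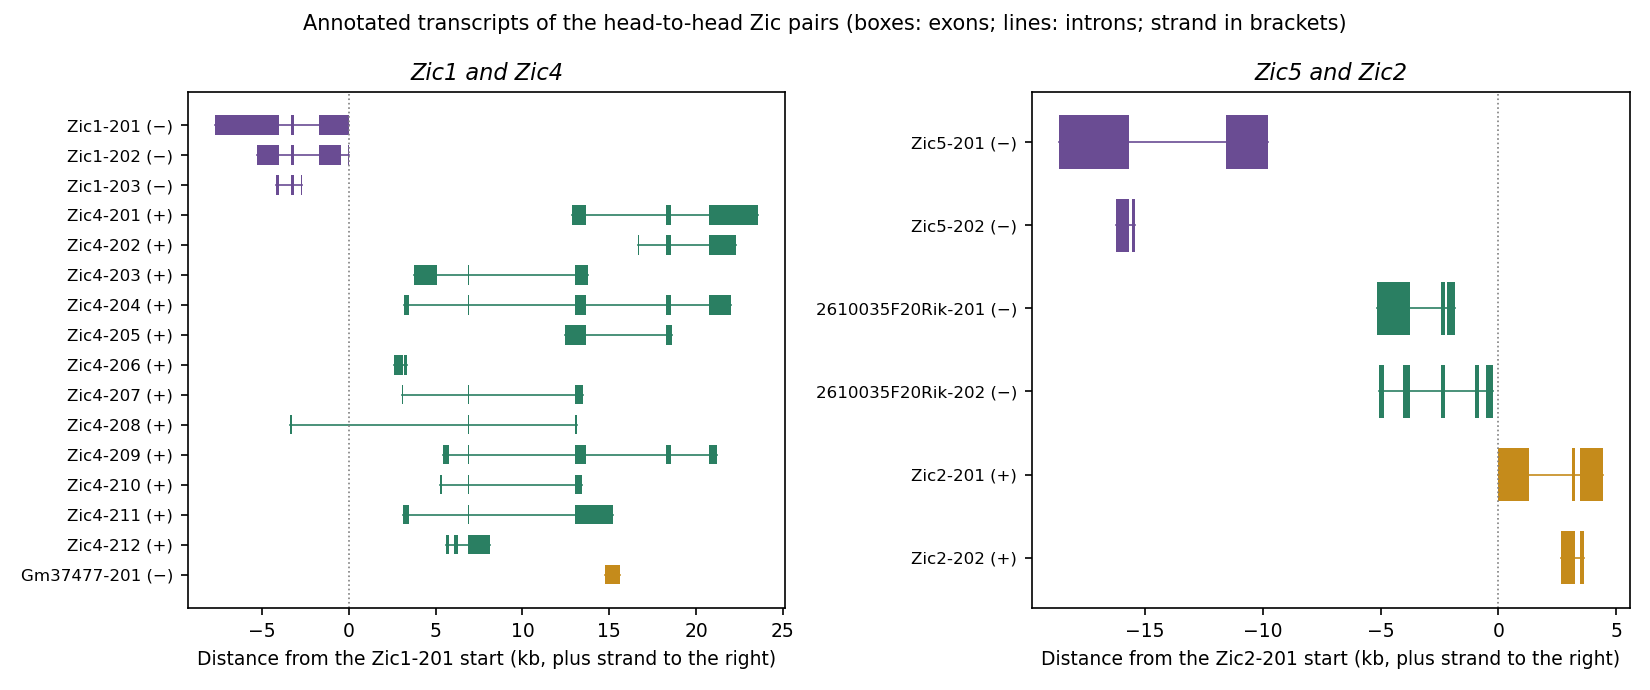
Annotated transcripts of both Zic pairs, with exons as boxes and introns as lines, placed by distance in kilobases from the start of Zic1-201 (left) or Zic2-201 (right). The start sites 3202 bases apart (Zic1-201 and Zic4-204) and 9758 bases apart (Zic5-201 and Zic2-201) point away from each other, and Zic4-208 begins inside Zic1.

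The sequences below show how alike the members are where the zinc finger domain is encoded, which bears on whether short reads can be assigned to 1 member. They are the second exon, exon 2, of Zic1-201 at chr9:91362459-91362622 (minus strand) and exon 2 of Zic2-201 at chr14:122478540-122478703 (plus strand), on GRCm38, written 5′ to 3′ with the positions that differ in capitals.
Zic1 exon 2: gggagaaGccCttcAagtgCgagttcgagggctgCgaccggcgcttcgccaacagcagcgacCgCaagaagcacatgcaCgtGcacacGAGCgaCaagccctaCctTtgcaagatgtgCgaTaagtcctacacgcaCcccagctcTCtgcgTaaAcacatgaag
Zic2 exon 2: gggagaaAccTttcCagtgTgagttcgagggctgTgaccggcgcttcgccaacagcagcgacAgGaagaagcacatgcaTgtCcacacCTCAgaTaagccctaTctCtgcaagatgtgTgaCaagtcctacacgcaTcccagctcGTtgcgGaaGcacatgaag
Both exons are coding and 164 bases long, and 141 positions are identical (86.0%), with a longest identical run of 27 bases. Over whole annotated transcripts, Zic1 and Zic2 shared 9 of their 31-base words, and Zic1 and Zic4 shared 46, while the other 4 pairs of members shared 0. The shared words made up 0.969% of those of Zic1, 0.445% of Zic4, 0.316% of Zic2 and 0.0% of Zic5. Part of the Zic1 and Zic4 overlap has a plain source in the annotation. Exon 1 of Zic4-208 covers 60 bases (chr9:91362459-91362518) of exon 2 of Zic1-201 on the opposite strand, and since the strand of the libraries is not given in the sources used here, reads of Zic1 and Zic4 there cannot be told apart.

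The start regions of Zic1 and Zic4 are shown because these neighbours are read outward from the same stretch of chromosome and yet differ in base composition. They come from RefSeq on GRCm38.p6, cover 250 bases before and 50 bases after the start, and are written 5′ to 3′ on each gene's own strand (Zic1 at chr9:91365719-91366018, minus; Zic4 at chr9:91368722-91369021, plus), with matches to CCAAT in capitals.
Zic1 promoter: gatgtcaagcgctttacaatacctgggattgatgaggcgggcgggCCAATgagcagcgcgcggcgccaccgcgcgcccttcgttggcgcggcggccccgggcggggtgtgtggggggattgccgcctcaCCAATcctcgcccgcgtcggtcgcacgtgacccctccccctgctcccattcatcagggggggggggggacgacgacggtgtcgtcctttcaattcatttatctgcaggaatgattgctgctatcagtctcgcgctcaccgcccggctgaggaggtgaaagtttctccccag
Zic4 promoter: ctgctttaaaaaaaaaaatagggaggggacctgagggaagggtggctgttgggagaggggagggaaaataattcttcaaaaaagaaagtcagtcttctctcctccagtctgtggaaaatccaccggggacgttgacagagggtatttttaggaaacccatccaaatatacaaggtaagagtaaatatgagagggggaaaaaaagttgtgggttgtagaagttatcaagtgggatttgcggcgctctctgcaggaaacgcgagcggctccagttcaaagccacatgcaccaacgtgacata
The Zic1 window held 31 CpG dinucleotides and 65.3% G and C, and 89.4% of the 32851 RefSeq mouse promoters of this length held fewer CpGs. The Zic4 window held 8 CpGs and 46.0% G and C, close to the median promoter (7 CpGs and 52.7%). It holds the annotated starts of Zic4-204, which was near 0 in all libraries, of Zic4-207, a protein-coding form, and of Zic4-211. Zic4-207 had 41.0 to 97.6 estimated counts per library. Zic4-201, the form with the most Zic4 reads, starts outside this window, at 91378642. The Zic5 window, at chr14:122465609-122465908 on the minus strand, held 15 CpGs and 62.7% G and C. Both strands were searched for the general promoter elements CCAAT and, separately, TATAAA, for the E-box spelled CAGCTG, for a core of Zic binding motifs spelled CAGCAGG and for the Gli site spelled GACCACCCA, and no match overlapped another. Zic1 held 2 matches to CCAAT, which is found in 37.4% of promoters. No other match was found in the 3 windows, while TATAAA is in 13.6%, CAGCTG in 16.3%, CAGCAGG in 10.5% and GACCACCCA in 0.253% of promoters.

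Zic1 was by far the most abundant of the 4 genes. Per length, in TPM (length-scaled transcript abundance, with the same total in each library) summed over each gene's transcripts, Zic1 had 497, 680 and 560 TPM in Eed mutant replicates 1 to 3, against 602, 841 and 560 TPM in Eed wild-type replicates 1 to 3. Zic1 ranked 164 of 52550 genes by its mean TPM. Zic2 had 186, 231 and 203 TPM in mutants, against 211, 306 and 233 TPM in wild type, and ranked 548. Zic1 exceeded Zic2 in 6 of 6 libraries, by 2.40 to 2.95 times.

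Zic4 had 137, 177 and 161 TPM in mutants, against 251, 217 and 180 TPM in wild type, and ranked 712. Zic2 was above Zic4 in 5 of 6 libraries, the exception being wild-type replicate 1, and their ranges overlapped (Zic2 over Zic4 ran between 0.840 and 1.41), so the order of these neighbours was not separated by the spread. Zic5 had 62.9, 74.3 and 68.2 TPM in mutants, against 72.2, 90.5 and 78.3 TPM in wild type, and ranked 2393. It was below Zic4 in 6 of 6 libraries, by 2.18 to 3.48 times. Short transcripts weigh heavily in a TPM sum, above all in Zic4 with its 12 transcripts; over the protein-coding transcripts alone the medians of 6 libraries were 487 TPM for Zic1, 185 TPM for Zic2, 97.2 TPM for Zic4 and 57.6 TPM for Zic5, in the same order. Together the 4 genes held between 0.0883% and 0.116% of all TPM in mutants and between 0.105% and 0.145% in wild type.

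All 4 Zic genes had lower mean levels in Eed mutant than in Eed wild-type tumours, by 0.18 to 0.46 on the log2 scale, and none passed the test at an adjusted p below 0.05 in edgeR. That test made no call anywhere: 0 of 19145 genes passed (0.0%), while 3459 genes (18.1%) had an unadjusted p below 0.05, and DESeq2, a second test, called 962 genes. Levels for this comparison are CPM (counts relative to the library total) scaled by TMM factors, which are not divided by length and are compared here only within a gene. Log2 fold changes below 0 were common, at 51.4% of all tested genes, and values below -0.18, as in all 4 members, were found in 27.0%. The median over all tested genes was -0.01 (-0.00893). In these pieces of tumour, fewer cells of a type and less RNA per cell cannot be told apart.

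Zic4, the partner of Zic1, differed most. It had 168, 203 and 192 CPM in mutant replicates 1 to 3, against 302, 250 and 224 CPM in wild-type replicates 1 to 3. Every mutant library was below every wild-type library, and the highest value was that of wild-type replicate 1. The means were 188 ± 17.7 CPM in mutants and 259 ± 39.8 CPM in wild type (SD, n = 3 each), with the fitted mutant level at 72.5% of wild type. The log2 fold change was -0.46 (SE 0.123), with an unadjusted p of 0.00690 and an adjusted p of 0.160 in edgeR. It was the 1 member of 4 with an unadjusted p below 0.05, which 8.78% of all genes had with a lower level in mutants.

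DESeq2 gave Zic4 a log2 fold change of -0.47 (SE 0.141) with an adjusted p of 0.0242, the 1 call among the 4 members by that test, where 2.71% of 15782 genes were called lower in mutants. It was also the 1 member of 4 with groups that did not overlap, where 11.9% of all genes did not overlap and were lower in mutants. The DESeq2 call of Zic4 did not stand in every fit that left out 1 library. It was lost without mutant replicate 1 (log2 fold change -0.39, adjusted p 0.295), without mutant replicate 3 (-0.48, adjusted p 0.129) and without wild-type replicate 1 (-0.34, adjusted p 0.0975). It stood without mutant replicate 2 (-0.52, adjusted p 0.0396), wild-type replicate 2 (-0.49, adjusted p 0.0401) or wild-type replicate 3 (-0.56, adjusted p 0.00292). DESeq2 calls over all genes, 962 with all libraries, moved as well. They were 217 without mutant replicate 1, 360 without mutant replicate 3 and 825 without wild-type replicate 1, where Zic4 lost its call. Where it kept the call, they were 776 without mutant replicate 2, 581 without wild-type replicate 2 and 1353 without wild-type replicate 3.

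Zic1, the most abundant member, had 1211, 1536 and 1304 CPM in mutant replicates 1 to 3, against 1471, 1832 and 1435 CPM in wild-type replicates 1 to 3. Mutant replicate 2 lay above wild-type replicates 1 and 3, so the groups overlapped. The means were 1351 ± 167 CPM in mutants and 1579 ± 219 CPM in wild type (SD, n = 3 each). The log2 fold change of -0.23 (SE 0.133) gave an adjusted p of 0.401 in edgeR and 0.377 in DESeq2, and the difference was of the size of the spread between replicates.

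Zic2 had 249.8, 312 and 269 CPM in mutants, against 274, 406 and 297 CPM in wild type. Again mutant replicate 2 was the highest mutant and wild-type replicate 2 the highest of all, and the groups overlapped. Means were 277 ± 31.8 CPM in mutants and 326 ± 70.3 CPM in wild type (SD, n = 3 each), giving a fitted log2 difference of -0.23 (SE 0.159) that did not pass edgeR (adjusted p 0.463). Without wild-type replicate 2 the value was -0.045.

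Zic5, which shares its locus with Zic2, had 151, 169 and 154 CPM in mutants, against 164, 196 and 179 CPM in wild type. Mutant replicate 2 lay above wild-type replicate 1, so the groups overlapped by that single value. Zic5 varied least of the 4 genes, with means of 158 ± 9.83 CPM in mutants and 180 ± 16.1 CPM in wild type (SD, n = 3 each). Its log2 fold change was -0.18 (SE 0.0841), with an adjusted p of 0.301 in edgeR and 0.321 in DESeq2.

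**Figure D2:**
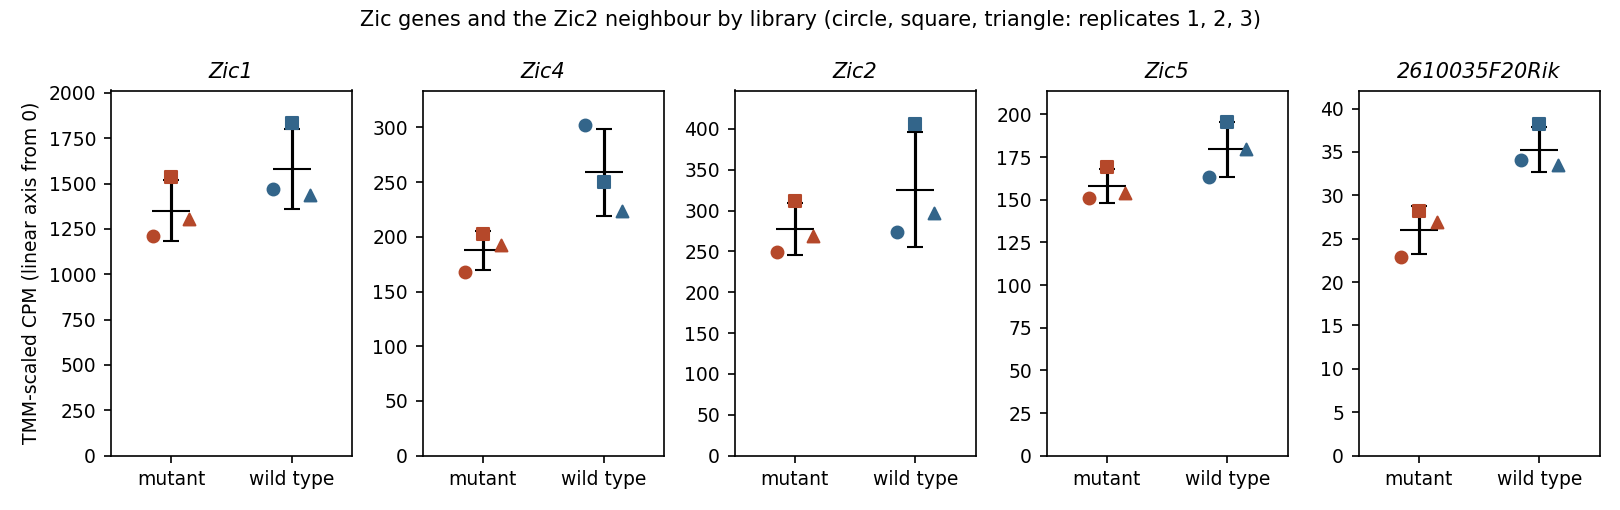
TMM-scaled CPM of the 4 Zic genes and of 2610035F20Rik in each library, with Eed mutant libraries left and Eed wild-type libraries right in each panel. Marks are single libraries, the horizontal line is the mean and the bar 1 SD of 3 libraries. The groups are apart for Zic4 (168 to 203 CPM in mutants, 224 to 302 CPM in wild type) and for 2610035F20Rik, and overlap for Zic1, Zic2 and Zic5, in which replicate 2 is the highest of each group.

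The non-coding gene between Zic5 and Zic2 had lower levels in mutants as well. 2610035F20Rik had 22.9, 28.2 and 26.9 CPM in mutants, against 34.1, 38.2 and 33.5 CPM in wild type. The groups did not overlap, with means of 26.0 ± 2.74 CPM in mutants and 35.3 ± 2.56 CPM in wild type (SD, n = 3 each). The log2 fold change was -0.44 (SE 0.103), with an unadjusted p of 0.00350 and an adjusted p of 0.149 in edgeR and of 0.0168 in DESeq2. The DESeq2 call was lost without mutant replicate 1 (log2 fold change -0.35, adjusted p 0.195), mutant replicate 3 (-0.47, adjusted p 0.0862) or wild-type replicate 2 (-0.38, adjusted p 0.0947). Gm37477, inside Zic4, had 10.6, 12.1 and 10.3 CPM in mutants, against 15.3, 10.5 and 11.1 CPM in wild type, with overlapping groups and a log2 fold change of -0.16 (adjusted p 0.644 in edgeR). The last exon of Zic4-211 ends at 91380986, inside Gm37477. With no strand information, reads of Gm37477 and those of Zic4-211 or of Zic4 introns cannot be told apart there.

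Each deposited file carries a number in its name, 18, 19 or 38, whose meaning is not given in the sources used here. Mutant replicates 1 and 2 and wild-type replicate 2 share 19, mutant replicate 3 and wild-type replicate 3 share 18, and wild-type replicate 1 alone has 38. Within a shared number, every mutant library was below its wild-type library for Zic1, Zic2, Zic4, Zic5 and 2610035F20Rik. For Gm37477 this did not hold, as the highest mutant library of number 19 was at 116% of wild type. How many of all genes have such an order was not counted, so it does not set the members apart. The mutant library nearest to wild type within a number was at 83.9% and 90.9% for Zic1, 81.0% and 85.8% for Zic4, 76.9% and 90.6% for Zic2, and 86.5% and 85.7% for Zic5 (numbers 19 and 18, with 1 wild-type library each and so no test).

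Neighbours were next compared with each other, to see whether the balance within a pair moved. The ratio of Zic1 to Zic4 in TPM was 3.63, 3.85 and 3.48 in mutant replicates 1 to 3, against 2.40, 3.88 and 3.11 in wild-type replicates 1 to 3. The mutant ratios were close together and wild-type replicate 2 exceeded them all. On the log2 scale the difference was 0.25 and did not stand out from the spread (exact permutation test, two-sided, p = 0.4; the smallest p that 3 against 3 samples allow is 0.1), and it moved both ways without single libraries, to 0.071 without wild-type replicate 1 and to 0.42 without wild-type replicate 2, where the groups did not overlap (exact permutation p = 0.1, again the smallest possible). The ratio of Zic2 to Zic5 was 2.97, 3.11 and 2.98 in mutants, against 2.92, 3.38 and 2.98 in wild type, with a log2 difference of -0.035 (exact permutation test, two-sided, p = 0.8).

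At the level of transcripts, each tested form of Zic4 had a lower mean level in mutants. Of the 18 transcripts tested, 17 had a log2 fold change below 0, where 51.4% of all 50890 tested transcripts did, and 0 of 50890 passed edgeR's test (0.0%), with 4994 at an unadjusted p below 0.05. The 11 tested Zic4 transcripts ranged between -0.65 and -0.21. In 6 of the 18, all of them of Zic4, the groups did not overlap, and in 3 of the 18, again of Zic4, the unadjusted p was below 0.05. Lower non-overlapping groups were found in 8.36% of all transcripts and an unadjusted p below 0.05 with a lower mutant level in 4.71%. The Zic4 forms overlap each other, so their estimates share reads and are not independent of each other. The transcript left untested was Zic4-204, which was near 0 in all libraries.

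Zic4-201, a protein-coding form that starts furthest from Zic1 among the coding ones, held more of the Zic4 reads than any other transcript. It had 94.3, 109 and 112 CPM in mutants, against 171, 141 and 131 CPM in wild type, with no overlap and the highest value again in wild-type replicate 1. edgeR gave it a log2 fold change of -0.49 with SE 0.123, an unadjusted p of 0.00622 and an adjusted p of 0.393. Zic4-211, a retained-intron form that starts nearer to Zic1, had 26.6, 32.5 and 31.9 CPM in mutants, against 47.1, 38.1 and 34.7 CPM in wild type, and edgeR gave it a log2 fold change of -0.40 with SE 0.145 (unadjusted p 0.0314, adjusted p 0.470). The groups of Zic4-211 did not overlap either. Since the estimates of Zic4 forms share reads, they do not measure the use of either start region, which was not tested.

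The other members differed less between their forms. Zic1-201, the main coding form of Zic1, had 1058, 1345 and 1177 CPM in mutants, against 1344, 1616 and 1296 CPM in wild type, with overlapping groups and a log2 fold change of -0.25 (SE 0.120, adjusted p 0.562 in edgeR). Zic1-202, the second coding form, had 148, 169 and 122 CPM in mutants, against 113, 188 and 129 CPM in wild type, and was the 1 tested transcript with a log2 fold change above 0, at 0.03 (SE 0.216). Values were -0.06 for the short Zic1-203, -0.22 for Zic2-201, -0.37 for Zic2-202, -0.18 for Zic5-201 and -0.24 for Zic5-202, all with overlapping groups.

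**Figure D3:**
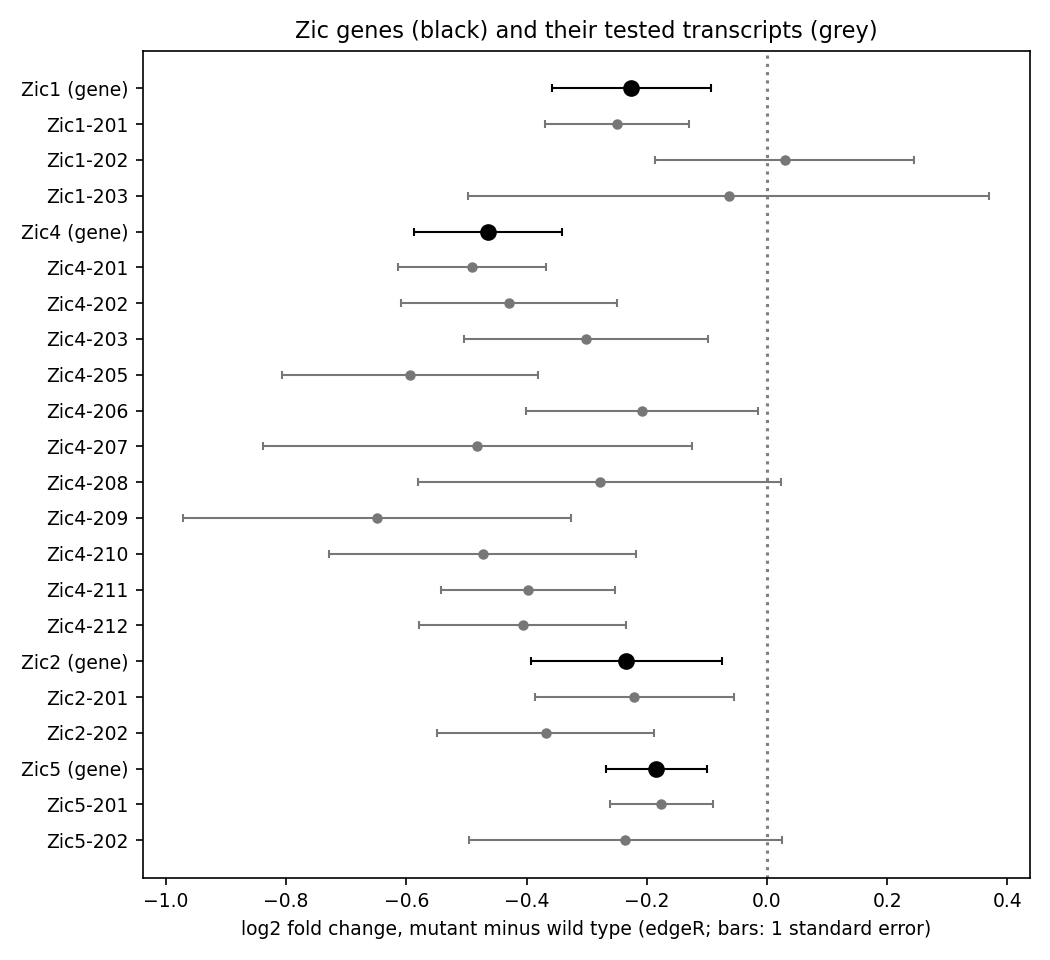
Log2 fold changes, Eed mutant minus Eed wild type, from edgeR for the 4 Zic genes (black) and their 18 tested transcripts (grey); bars are 1 standard error and the dotted line is at 0. The 11 Zic4 transcripts lie between -0.65 and -0.21, while Zic1-202 at 0.03 lies right of 0.

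The make-up of each gene by transcript was then set against genotype, for the 13 transcripts with at least 5% of their gene's TPM. The main coding forms held 63.1% ± 2.03 of Zic1 TPM in mutants and 67.8% ± 6.86 in wild type (Zic1-201), 28.8% ± 1.67 of Zic4 TPM in mutants and 30.5% ± 1.81 in wild type (Zic4-201), and 79.0% ± 2.48 in mutants and 78.3% ± 3.45 in wild type for Zic5 (Zic5-201), as SD with n = 3 each. Zic2-201 held 84.9% ± 0.341 in mutants and 83.4% ± 1.25 in wild type (SD, n = 3 each). For Zic2-201, its complement Zic2-202 and Zic4-206 (12.9% ± 0.636 in mutants, 11.3% ± 0.299 in wild type) the groups did not overlap, which gave the smallest p the design allows, 0.1 (exact permutation test, two-sided), and 0.433 after adjustment over 13 transcripts. The differences were 1.45 percentage points for Zic2-201 and 1.59 for Zic4-206, against 0.442 and 0.505 as shares of estimated counts, and Zic2-201 was at 0.754 without wild-type replicate 3. The main coding form of each gene was its most abundant transcript by TPM in all 6 libraries.

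For each member, the 3 protein-coding genes closest in pattern over the 6 libraries were listed, out of 11648 genes with at least 5 CPM on average. Likeness was the root-mean-square difference of log2(CPM + 0.5), centred on each gene's mean, where a smaller value means a closer pattern. Zic1 was closest to Ank3 (ankyrin-G, a scaffold of the axon initial segment; 0.0260), Mapk8ip1 (a scaffold of JNK signalling; 0.0265) and B3galt1 (a galactosyltransferase; 0.0297). Ank3 had 456, 594 and 510 CPM in mutants, against 586, 722 and 564 CPM in wild type, with replicate 2 the highest of each group as in Zic1. Zic2 was closest to Cbx8 (a Polycomb repressive complex 1 subunit; 0.0320), Erc1 (a protein of the presynaptic active zone; 0.0371) and Ehd1 (an ATPase of endosomal recycling; 0.0388).

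Zic5 was closest to Fam160a2 (0.0187), Zfp697 (a zinc finger protein; 0.0192) and Dyrk1b (a protein kinase; 0.0217). Zic4 had another pattern, with no gene nearer than 0.0643: Ezh1, a catalytic subunit of PRC2, was at 0.0643, Galnt16, which starts sugar chains on proteins, at 0.0704, and Cux2, a homeobox transcription factor, at 0.0715. Ezh1 had 38.5, 40.6 and 41.7 CPM in mutants, against 62.1, 54.6 and 49.1 CPM in wild type, with the groups apart and wild-type replicate 1 the highest, as in Zic4. Ezh1 was picked for this likeness, as was Ank3 for Zic1, so the shared features are not a separate result. Among the members, Zic1 and Zic2, which are on different chromosomes, were closer to each other (0.0729) than Zic1 was to its neighbour Zic4 (0.214). Ranked among all candidates, Zic2 was number 135 for Zic1 and Zic1 number 72 for Zic2, so many other genes were nearer.

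Across the series, the libraries held between 26299365 and 26425111 estimated counts in mutants and between 26186236 and 26330605 in wild type. Eed itself had 32.6, 36.8 and 30.7 CPM in mutants, against 43.8, 30.1 and 35.6 CPM in wild type. These overlap (log2 fold change -0.13; edgeR's adjusted p was 0.656), and since the altered part of Eed is not given, its level does not check the labels. Markers of granule progenitors, the cell type from which Hedgehog-driven medulloblastomas form, were present in all libraries: the 13 genes of that list summed to between 4661 and 5036 CPM in mutants and between 3967 and 4972 CPM in wild type.

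Most markers of later granule stages had lower mean levels in mutants, as the Zic genes did. Of 10 genes of differentiating granule neurons, 10 had a log2 fold change below 0 (median -0.31), 0 passed edgeR and 1 passed DESeq2 as lower, and their sum ran between 2966 and 3891 CPM in mutants and between 3562 and 5094 CPM in wild type. Gap43, a growth cone protein, had 104, 141 and 112 CPM in mutants, against 143, 209 and 166 CPM in wild type. Of 12 genes of mature granule neurons, 11 were below 0 (median -0.73), 0 passed edgeR and 3 passed DESeq2 as lower, with sums of 991 to 1301 CPM in mutants and 1254 to 2040 CPM in wild type. Gabra6, a GABA receptor subunit of mature granule cells, had 20.8, 36.5 and 28.7 CPM in mutants, against 43.2, 87.8 and 41.7 CPM in wild type. For the 13 progenitor genes the median was -0.01, 0 passed edgeR, and DESeq2 called 2 higher and 1 lower (2.71% of all genes were called lower and 3.38% higher). A log2 fold change below 0 was found in 51.4% of all genes. Wild-type replicate 2, which had the highest Zic1, Zic2 and Zic5, also had the highest sums of both later lists and the lowest progenitor sum; its sums were likewise the highest for the oligodendrocyte, Purkinje cell, inhibitory interneuron and astrocyte lists described next, so this was not particular to granule stages. The part of these stages in the Zic differences was not tested.

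Cell types outside the granule lineage were read in the same way, with 0 genes of any list passing edgeR. Over all genes, DESeq2 called 2.71% lower and 3.38% higher, and 51.4% had a log2 fold change below 0. Meningeal and fibroblast genes, of interest because meninges express Zic genes, had a median of -0.13 over 11 genes, with sums of 389 to 790 CPM in mutants and 301 to 396 CPM in wild type. DESeq2 called 1 of them higher (Igf2, a growth factor) and 1 lower (Dcn, the matrix protein decorin). Igf2 had 335, 273 and 556 CPM in mutants, against 152, 128 and 196 CPM in wild type. It made up most of the sum of this list in each mutant library, while 9 of the 11 genes had a log2 fold change below 0. Oligodendrocyte genes had a median of -1.30 over 11 genes, 8 of them called lower by DESeq2. Their sums were 577 to 662 CPM in mutants and 771 to 1680 CPM in wild type. Olig1 (0.12) and Olig2 (0.61) had log2 fold changes above 0, with overlapping groups. Purkinje cell genes had a median of -0.70 over 7 genes (2 called lower by DESeq2; sums of 426 to 599 CPM in mutants and 664 to 974 CPM in wild type). Inhibitory interneuron genes had a median of -0.53 over 9 tested genes (3 called lower by DESeq2; sums of 236 to 286 CPM in mutants and 349 to 429 CPM in wild type), with Ptf1a, which specifies that lineage, listed at 0 in all libraries.

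Astrocyte and Bergmann glia genes (median -0.06 over 8 genes, 0 called by DESeq2; sums of 1394 to 1890 CPM in mutants and 1557 to 2156 CPM in wild type) and microglia genes (median -0.30 over 6 genes, 1 called lower by DESeq2; sums of 111 to 145 CPM in mutants and 128 to 183 CPM in wild type) overlapped between the groups. Skeletal muscle genes had a median of 3.78 over 8 genes, 5 of them called higher by DESeq2. Of all genes, DESeq2 called 3.38% higher and 2.71% lower. The muscle sums were 124 to 373 CPM in mutants and 54.3 to 102 CPM in wild type. Acta1, the actin of skeletal muscle, had 12.5, 8.60 and 31.9 CPM in mutants, against 0.793, 1.48 and 2.36 CPM in wild type. The part of any of these cell types in the Zic values was not tested.

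**Figure D4:**
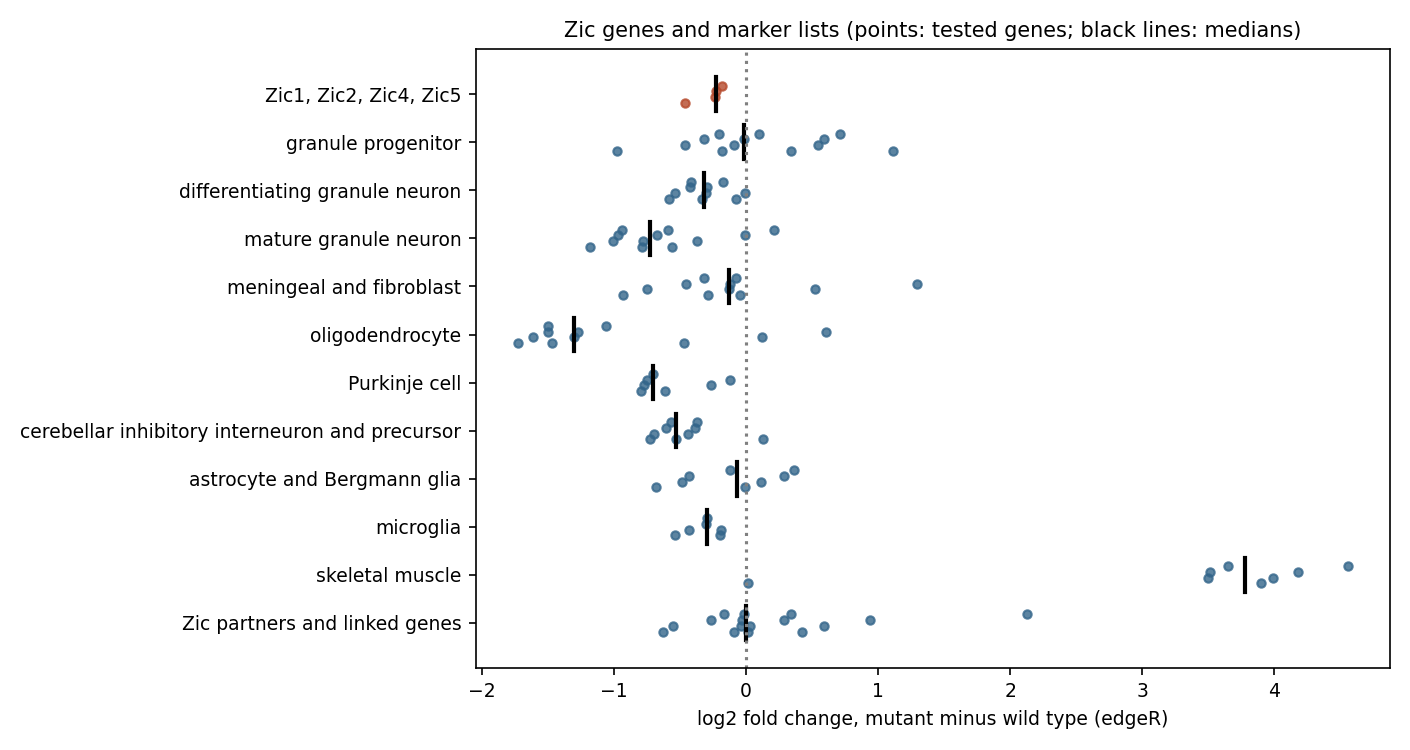
Log2 fold changes, Eed mutant minus Eed wild type, from edgeR for the 4 Zic genes (top, red) and for the tested genes of each list (blue); vertical black bars are medians and the dotted line is at 0. The Zic genes lie between -0.46 and -0.18, beside the medians of the differentiating granule neuron (-0.31) and microglia (-0.30) genes. They are within the range of the progenitor genes (-0.98 to 1.11, median -0.01). The ranges of all other lists but microglia and skeletal muscle hold them too, so this is not particular to progenitors.

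Genes linked to Zic function were described last, from a list of 21 genes whose products bind Zic proteins, share their class of zinc fingers or act with them in the dorsal neural tube, neural crest, retina or granule cells. Of the 16 tested, 8 had a log2 fold change below 0 (median 0.00, 0 called by edgeR), where 51.4% of all genes did. DESeq2 called 2 higher and 0 lower, where 3.38% of all genes were called higher and 2.71% lower. Wnt3a, a dorsal midline signal, was listed at 0 in all libraries. Pax3, which acts with Zic1 in the induction of the neural crest in Xenopus, had 12.9, 6.57 and 13.4 CPM in mutants, against 2.27, 2.61 and 2.62 CPM in wild type. All mutant libraries were above all wild-type libraries, with a log2 fold change of 2.13 with SE 0.288 (edgeR's adjusted p was 0.104, that of DESeq2 2.06e-09). The share of all genes with groups apart and higher in mutants was not counted, for Pax3 or for Gli3 below.

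Gli3, a Gli factor that acts mostly as a repressor of Hedgehog targets, had 29.9, 28.1 and 36.3 CPM in mutants, against 21.9, 11.8 and 15.4 CPM in wild type. The groups did not overlap, with means of 31.4 ± 4.28 CPM in mutants and 16.4 ± 5.13 CPM in wild type (SD, n = 3 each) and a log2 fold change of 0.94 with SE 0.223 (edgeR's adjusted p was 0.151, that of DESeq2 0.00280). The other Gli factors, Gli1 and Gli2, had log2 fold changes of 0.35 (adjusted p 0.235 in edgeR) and -0.01 (adjusted p 0.965 in edgeR), and Atoh1, the granule lineage factor that Zic1 can repress in chick, had 0.59 (adjusted p 0.202 in edgeR); these 3 were picked for their role after their values were seen.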

How the data were processed

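RNA-seq was analysed from 3 Eed mutant and 3 Eed wild-type mouse medulloblastoma samples. Per the file headers, the deposited files hold estimated counts, TPM and effective length per transcript; per the submitters' processing notes, the authors used kallisto 0.43.1 and GRCm38 (mm10). Kallisto divides reads that fit several transcripts between them. Strand, read length and RNA selection are not given in the sources used here.

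Estimated counts were summed per gene and rounded, giving 52550 genes, of which 52403 matched GENCODE M21 by identifier and 147 did not. The deposited TPM values were summed per gene for levels. edgeR 4.0.16 (R 4.3.3, TMM, default filter, quasi-likelihood test, Benjamini-Hochberg adjustment at 0.05) compared the groups over 19145 genes and over 50890 transcripts. DESeq2 1.42.0 and limma 3.58.1 were alternatives, with other scalings, filters, a pseudocount of 0.1 in place of 1 on TPM, a replicate block, the number in the file name as a term, and each library left out. DESeq2 without each library was added after seeing the data. Pair ratios and transcript shares were compared by exact permutation. The fits were tested on simulated counts. Libraries held 26186236 to 26425111 estimated counts; counting error weighs most on the Zic4 transcripts with few reads.

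The members, the gene lists and the tests were chosen with earlier results of these data known. Named genes are the 4 members, their transcripts with at least 5% of the gene's TPM, and genes inside or between the members of a pair. The 3 genes nearest in pattern to each member were named too. From the lists, genes were named from among the 2 with the lowest p in each. Not all of these were named, and from several lists none was. Eed, Zic4-204, Ptf1a, Wnt3a, Gli1, Gli2 and Atoh1 were named outside this rule, after their values were seen. 3 of the 4 members matched a RefSeq promoter. Protein sequences were not used here.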

Additional observations from a re-analysis of the deposited data

How the results depend on the processing

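No member changed direction under any alternative. The number of genes called, 0 in edgeR (3459 at an unadjusted p below 0.05), was 962 in DESeq2 (217 to 1353 without single libraries), 1 in limma-voom, 1 with limma-trend on log2(TPM + 0.1), 3 without a filter on low counts and 0 to 9 in edgeR without single libraries; the cause was not tested. Whether the replicate numbers pair the samples was not settled. Same-numbered samples deviated together with correlations of 0.227, 0.0624 and -0.135, against -0.2945 to 0.193 for differently numbered ones. With 3 samples a group these values cannot decide it. With the replicate block, 273 genes were called, 189 of them higher in mutants, and no member was among them: the log2 fold changes were -0.22 for Zic1, -0.46 for Zic4 (adjusted p 0.149), -0.22 for Zic2 and -0.18 for Zic5.

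Zic4 was -0.47 in DESeq2, past its threshold, and -0.56 to -0.34 without single libraries, in DESeq2 and in edgeR alike (adjusted p 0.00292 to 0.295 in DESeq2), with -0.52 without mutant replicate 2 and -0.49 without wild-type replicate 2 (call kept), and -0.39, -0.48 and -0.34 without mutant replicates 1 and 3 and wild-type replicate 1 (call lost). Without single libraries in edgeR, Zic1 ran between -0.33 and -0.11, Zic2 between -0.34 and -0.045 and Zic5 between -0.25 and -0.12. Over the other 11 alternatives the ranges were -0.30 to -0.17 for Zic1, -0.48 to -0.34 for Zic4, -0.37 to -0.22 for Zic2 and -0.26 to -0.18 for Zic5.

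Values near 0 changed sign; their causes were not tested. Gm37477 was 0.019 with the file number as a term and -0.26 to 0.028 without single libraries. Without single libraries, Zic1-202 ran between -0.12 and 0.27, Zic5-202 between -0.36 and 0.017 and the log2 ratio of Zic2 to Zic5 between -0.074 and 0.031. Zic1-203 was 0.030 with limma-trend on log2(TPM + 1), 0.046 with the replicate block and -0.36 to 0.50 without single libraries. In percentage points of a gene's TPM and without single libraries, the share differences ran between -0.535 and 6.27 for Zic1-203, -0.270 and 0.300 for Zic4-211, -0.900 and 0.0800 for Zic4-210, and -0.550 and 0.438 for Zic4-202, which was 0.209 as a share of estimated counts. Those of Zic5-201 and Zic5-202 ran between -1.29 and 1.93 and between -1.93 and 1.29. Precision is limited by 3 samples a group and, for transcripts with few reads, by counting error.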
